A study of Mus musculus with 12 samples.

Results

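The mast cell genes described here are 9 genes of the deposited table of trigeminal ganglion expression, chosen by name for their place in mast cell biology and matched by Ensembl identifier: the granule proteases Mcpt4, Cma1, Cpa3, Tpsb2 and Tpsab1, the receptors Kit, Fcer1a and Mrgprb2, and the histamine-forming enzyme Hdc. All 9 were found among the 51341 genes of the table. Expression was measured by poly A RNA sequencing in trigeminal ganglia of 12 CD1 mice, an outbred stock. These ganglia hold the sensory neurons of the face and of the meninges. The series asked about light aversion after PACAP, a peptide transmitter released by nerve fibres, and compared 6 mice labelled Responder (3 females and 3 males) with 6 labelled Non-responder (3 females and 3 males). The sources used here do not state the age of the mice, the scoring of a response or the interval between PACAP and dissection. No transgene or deletion is named in the labels, and each library came from its own mouse.

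Mast cells are tissue-resident cells of the blood lineage that lie along vessels and nerves, among them the trigeminal fibres of the dura mater. Their granules hold histamine, heparin or related proteoglycans, and large amounts of a few proteases, which are released together when the cell is activated. IgE bound to the high-affinity receptor FceRI is the classic trigger, and in mouse connective tissue mast cells the receptor MRGPRB2 answers to basic peptides and drugs without IgE. The receptor KIT and its ligand, stem cell factor, keep the cells alive.

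The granule protease genes were measured at low to moderate levels in both groups, and none of the mast cell genes passed the test between responders and non-responders. The protease transcripts went up and down together from mouse to mouse, with sums between 3.74 and 39.4 FPKM. Tpsab1 was the 1 tested mast cell gene with an unadjusted p under 0.05 by response: it stood at 1.17 ± 0.428 FPKM in responders and 0.573 ± 0.337 FPKM in non-responders (SD, n = 6 each), and its adjusted p was far above the threshold. Fcer1a was listed at 0 in every mouse.

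FPKM are fragments scaled by the length of the gene model and by the depth of the library, so that levels can be compared between genes. The test was run on the 14203 genes that reached 1 FPKM in 3 or more mice, and 7 of the mast cell genes were among them; Fcer1a and Mrgprb2 were not. Summed over genes, responders had 291601 to 358590 FPKM per mouse and non-responders 286388 to 332367. The depth implied by the smallest steps of the values was lowest in responder 1, near 17600000 fragments, and highest in non-responder 4, near 39400000. These libraries also stood apart in their makeup: responder 1 had the highest summed pituitary hormone transcripts, at 77879.7 FPKM, and non-responder 4 the highest summed neutrophil markers, at 4374 FPKM. The neuronal genes Tubb3 and Prph were high in all 12 libraries, at 308 FPKM or more. In bulk tissue, fewer mast cells and less of a transcript per mast cell cannot be told apart.

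Mcpt4 encodes a chymase of connective tissue mast cells. It had 2.83 FPKM in the lowest responder, a median of 6.72 and 12.5 in the highest, against 1.80, 6.15 and 13.96 FPKM in non-responders. Non-responder 3 was the highest mouse and non-responder 2 the lowest, so that the range of the non-responders enclosed that of the responders. Mcpt4 was the most abundant of the proteases in all 12 mice.

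Cma1 encodes another chymase-family protease of the same cells, which in the mouse cleaves like an elastase. Its lowest, median and highest values were 1.50, 4.13 and 6.17 FPKM in responders, against 0.814, 3.29 and 10.2 FPKM in non-responders. Non-responders 2 and 3 again stood at the bottom and the top. Cma1 and Mcpt4 lie in the chymase locus of chromosome 14, on the minus strand, Cma1 (ENSMUSG00000022225) at chr14:55941451-55944675 and Mcpt4 (ENSMUSG00000061068) at chr14:56059629-56062313 of GRCm38. Both are protein-coding with 5 exons.

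Because related proteases can share reads, the stretch of 150 coding bases in which each pair was most alike is shown, taken from the GENCODE M21 transcripts on GRCm38 and written 5′ to 3′ on the coding strand, with bases that differ between the pair in capitals. Cma1-201 (coding bases 592 to 741) and Mcpt4-201 (coding bases 550 to 699) differed at 33 of the 150 bases.

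Cma1: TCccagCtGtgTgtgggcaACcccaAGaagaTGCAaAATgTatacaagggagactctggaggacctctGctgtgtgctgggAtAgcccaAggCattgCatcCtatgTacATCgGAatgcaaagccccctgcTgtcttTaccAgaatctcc

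Mcpt4: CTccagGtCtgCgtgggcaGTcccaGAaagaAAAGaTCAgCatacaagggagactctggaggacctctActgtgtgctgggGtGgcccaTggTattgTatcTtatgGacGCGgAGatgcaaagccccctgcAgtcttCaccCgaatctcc

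Over the whole coding sequence the pair was 63.0% identical. A blastn search of the transcripts of the mast cell genes against all annotated transcripts, at 90% identity or more over at least 200 bases, found 1 match outside the gene itself: Cma1 with the unprocessed pseudogene Gm48934, at 96.9% over 295 bases, and Gm48934 was listed at 0 FPKM in every mouse. Reads that match both genes make the Cma1 value uncertain in that stretch.

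Cpa3 (ENSMUSG00000001865, chr3:20215620-20242181, minus strand, protein-coding) encodes the mast cell carboxypeptidase, which trims peptides from their C-terminal end. Its lowest, median and highest values were 0.708, 1.98 and 3.26 FPKM in responders, against 0.242, 1.94 and 4.82 FPKM in non-responders. The groups overlapped over the whole responder range, with non-responder 2 lowest and non-responder 3 highest. The gene overlaps the microRNA gene Mir7007 on the same strand, which was listed at 0.160 FPKM at most.

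Tpsb2 and Tpsab1 encode the mast cell tryptases, trypsin-like proteases that in Tpsb2's case are stored as tetramers with heparin. They lie on chromosome 17 on opposite strands, Tpsb2 (ENSMUSG00000033825) at chr17:25366305-25369098 on the plus strand and Tpsab1 (ENSMUSG00000024173) at chr17:25343245-25345562 on the minus strand. Tpsb2 had 1.35, 4.23 and 5.30 FPKM in the lowest, the median and the highest responder, against 0.766, 3.21 and 9.33 FPKM in non-responders. The responder values all lay within the range of the non-responders.

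Tpsab1 had 0.401 FPKM in responder 2, a median of 1.19 and 1.66 FPKM in responder 6, against 0.120 FPKM in non-responder 2, a median of 0.506 and 1.13 FPKM in non-responder 3. All responders other than responder 2 had 1.12 FPKM or more, and all non-responders other than non-responder 3 had 0.737 FPKM or less. The groups overlapped because of those 2 mice. Tpsab1 passed the filter on low values through 5 responders and 1 non-responder, so that its entry into the test was itself tied to the group in which it was higher.

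The tryptase genes share more sequence than the chymase pair, and the most alike stretch is shown because the values of these genes are set against each other. Tpsb2-203 (coding bases 655 to 804) and Tpsab1-202 (coding bases 757 to 906) differed at 18 of 150 bases, again in capitals, from GENCODE M21 on GRCm38.

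Tpsb2: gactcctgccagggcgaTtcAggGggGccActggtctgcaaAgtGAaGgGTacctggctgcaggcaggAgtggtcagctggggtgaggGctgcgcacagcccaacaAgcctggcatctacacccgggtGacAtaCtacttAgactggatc

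Tpsab1: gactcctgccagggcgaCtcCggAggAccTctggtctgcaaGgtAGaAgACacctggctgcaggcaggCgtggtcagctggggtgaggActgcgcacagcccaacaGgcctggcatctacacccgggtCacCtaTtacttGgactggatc

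The coding sequences were 67.7% identical over their whole length, and the least alike stretch of the same size held 59 differences. The annotations disagree on Tpsab1: GENCODE M21 lists it as protein-coding, with a transcript of 5 exons (Tpsab1-202, 1156 bases) and one of 2 exons (Tpsab1-201, 1928 bases), while RefSeq lists the same gene on GRCm38.p6 as a transcribed pseudogene. In C57BL/6 mice, the strain of the reference genome, the gene is known to carry a splice-site change that prevents the mature enzyme. Which allele these CD1 mice carried was not analysed here, and a gene-level value does not separate the transcripts.

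**Figure D1:**
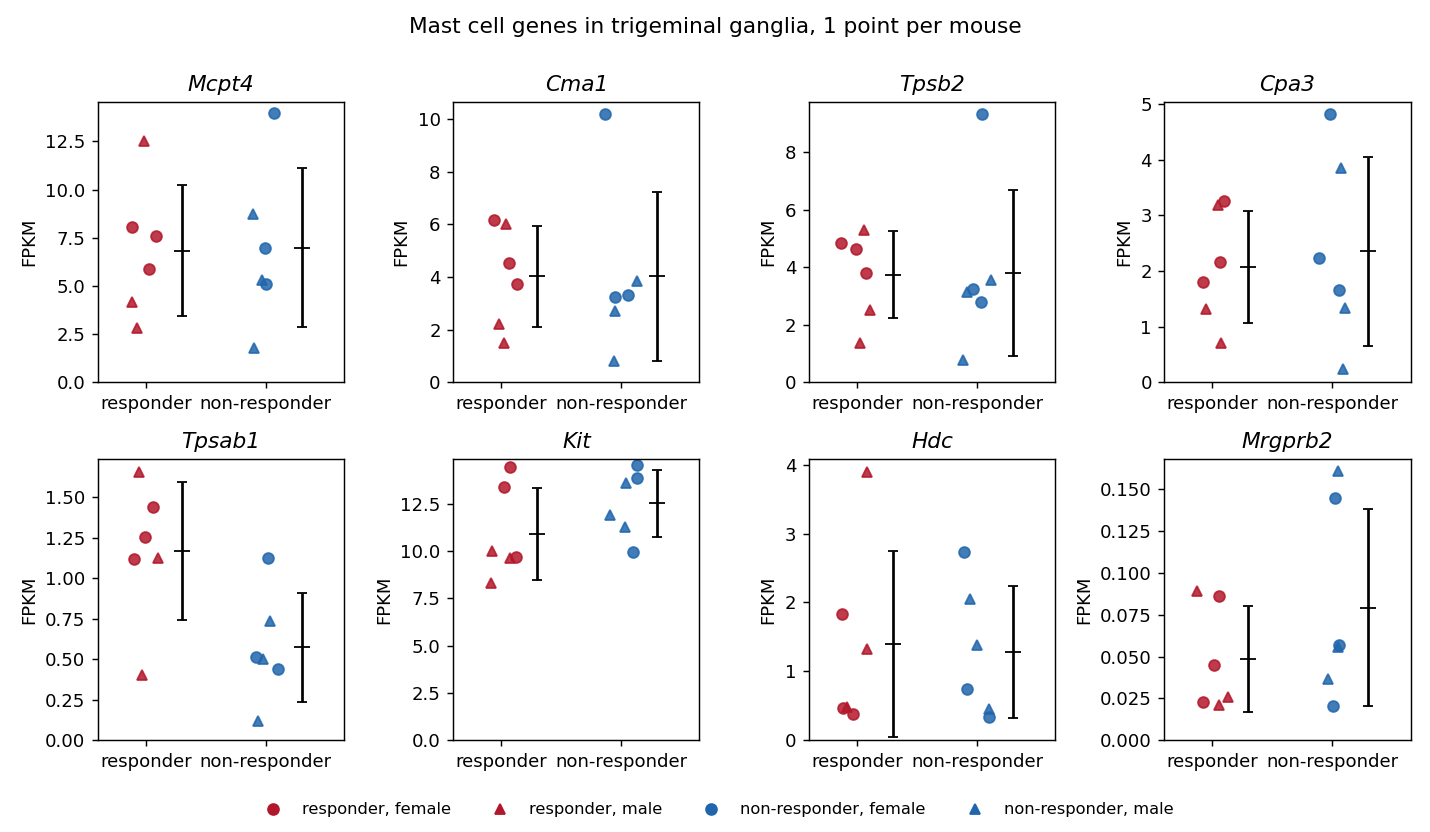
FPKM of 8 mast cell genes (vertical axes, each from 0) in responders and non-responders, 1 point per mouse, circles for females and triangles for males, with the mean and SD beside each group (n = 6 each). The groups overlap for each gene, and for Tpsab1 5 responders lie at 1.12 FPKM or more while 5 non-responders lie at 0.737 FPKM or less; Fcer1a, at 0 throughout, is not drawn.

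Among the receptors, Kit (ENSMUSG00000005672, chr5:75574916-75656722, plus strand) was the most abundant of the mast cell genes. KIT is the receptor tyrosine kinase for stem cell factor, and it is also made by melanocytes, blood progenitors and some sensory neurons. Its lowest, median and highest values were 8.31, 9.86 and 14.5 FPKM in responders, against 9.93, 12.8 and 14.5 FPKM in non-responders. The ranges overlapped, with 3 of the 6 responders below the lowest non-responder, and Kit varied only 1.75-fold between the lowest and the highest mouse, less than any other mast cell gene above 0. Of 6 melanocyte markers, 1 passed the filter and Tyr was at 0 in every mouse, and their sum lay between 1.24 and 2.57 FPKM in responders and between 0.893 and 2.26 in non-responders.

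Fcer1a (ENSMUSG00000005339, chr1:173221284-173227214, minus strand) encodes the IgE-binding chain of FceRI and was listed at 0 FPKM in all 12 mice. The other receptor chains were low: Ms4a2, the beta chain, was listed at 0 to 0.129 FPKM in responders and at 0.0222 to 2.00 FPKM in non-responders, and Fcer1g, the gamma chain shared with other immune receptors, at 0.101 to 0.382 FPKM in responders and 0.0391 to 2.38 FPKM in non-responders. The top value of each was in non-responder 4. A value of 0 in these data is a listing and does not show that no transcript was present.

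Mrgprb2 (ENSMUSG00000050425, chr7:48550965-48558086, minus strand) encodes the peptide receptor of connective tissue mast cells. It was near 0 throughout, with 0.0209, 0.0355 and 0.0892 FPKM in the lowest, the median and the highest responder, against 0.0203, 0.0563 and 0.161 FPKM in non-responders. The groups overlapped, and the means differed by less than their spread, at 0.0483 ± 0.0317 FPKM in responders and 0.0792 ± 0.0589 FPKM in non-responders (SD, n = 6 each; exact permutation test of log2 values, 2-sided p = 0.301, where 0.00216 is the smallest p the design allows).

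Hdc (ENSMUSG00000027360, chr2:126593667-126619299, minus strand) encodes histidine decarboxylase, the enzyme that makes histamine in mast cells, basophils and some neurons. It had 0.385, 0.898 and 3.89 FPKM in the lowest, the median and the highest responder, against 0.328, 1.06 and 2.73 FPKM in non-responders. Responder 1 was highest, the library that also held the most pituitary hormone transcripts, and whether these have a part in its Hdc value was not tested. Summed over 7 hormone genes, all tested and none at 0 in every mouse, the hormones came to 359 to 77879.7 FPKM in responders and 27.2 to 1053 FPKM in non-responders.

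Ranked by their mean over the 12 mice, Kit came first, at 11.7 ± 2.19 FPKM (SD), then Mcpt4 at 6.91 ± 3.61, Cma1 at 4.02 ± 2.52, Tpsb2 at 3.78 ± 2.20, Cpa3 at 2.21 ± 1.34, Hdc at 1.34 ± 1.12, Tpsab1 at 0.870 ± 0.481 and Mrgprb2 at 0.0638 ± 0.0479 FPKM. The means of neighbours in that order lay within the SD of the higher one, other than for Kit over Mcpt4 and Tpsab1 over Mrgprb2. Cma1 and Tpsb2 could not be ordered, since their ratio in single mice went from 0.786 to 1.17. Mcpt4 stood above Cma1 in every mouse, by 1.31-fold at the least, and Tpsab1 was below the 4 other proteases in every mouse.

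The comparison of responders with non-responders asked whether any mast cell gene differs with the response. By limma on log2(FPKM + 1), with sex as a covariate and Benjamini-Hochberg adjustment over all 14203 genes, 0 of the 7 tested mast cell genes passed an adjusted p of 0.05, where 3 of all genes, 0.0211%, did. At an unadjusted p under 0.05 there was 1 mast cell gene, Tpsab1, higher in responders. Among all genes 7.4% had such a p, 3.23% higher and 4.17% lower in responders. The groups overlapped for each of the 7 genes, so that 0 separated them, where 0.549% of all genes did. On the log2(FPKM + 1) scale the differences of genes near or under 1 FPKM come out smaller than their true size.

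Tpsab1 differed by 0.46 on that scale (SE 0.169, 95% interval 0.09 to 0.83, limma adjusted p = 0.602), a result that fails the correction. Without responder 1 and non-responder 4, the libraries that stood apart, it differed by 0.45 (limma adjusted p = 0.610). The exact permutation test over the mice, without sex and without correction, gave p = 0.0433 for Tpsab1. The same permutation test gave p = 0.195 for Kit and 0.810 to 0.961 for Cma1, Tpsb2, Mcpt4, Hdc and Cpa3. It had been planned for genes outside the filter only. Kit differed by -0.19 (SE 0.130, interval -0.48 to 0.09, limma adjusted p = 0.757). Without responder 1, its lowest mouse, and non-responder 4, Kit differed by -0.10 (limma adjusted p = 0.846). For the other proteases the differences were close to 0 but their intervals wide: Cma1 0.11 (interval -0.64 to 0.86, limma adjusted p = 0.951), Tpsb2 0.10 (-0.62 to 0.81, adjusted p = 0.955), Mcpt4 0.03 (-0.78 to 0.85, adjusted p = 0.987) and Cpa3 -0.03 (-0.77 to 0.71, adjusted p = 0.988).

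Hdc differed by 0.01 (interval -0.76 to 0.79, limma adjusted p = 0.993). As folds of FPKM + 1, the intervals of the 4 proteases other than Tpsab1 began at 0.581 to 0.650 and ended at 1.64 to 1.81, and differences inside them were not detectable with this spread between mice. The sum of the 5 proteases stood at 17.9 ± 8.04 FPKM in responders and 17.7 ± 11.9 FPKM in non-responders (SD, n = 6 each). Over the 7 tested genes, 5 differences were above 0 and 2 below, where 7208 of all genes were above and 6995 below.

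**Figure D2:**
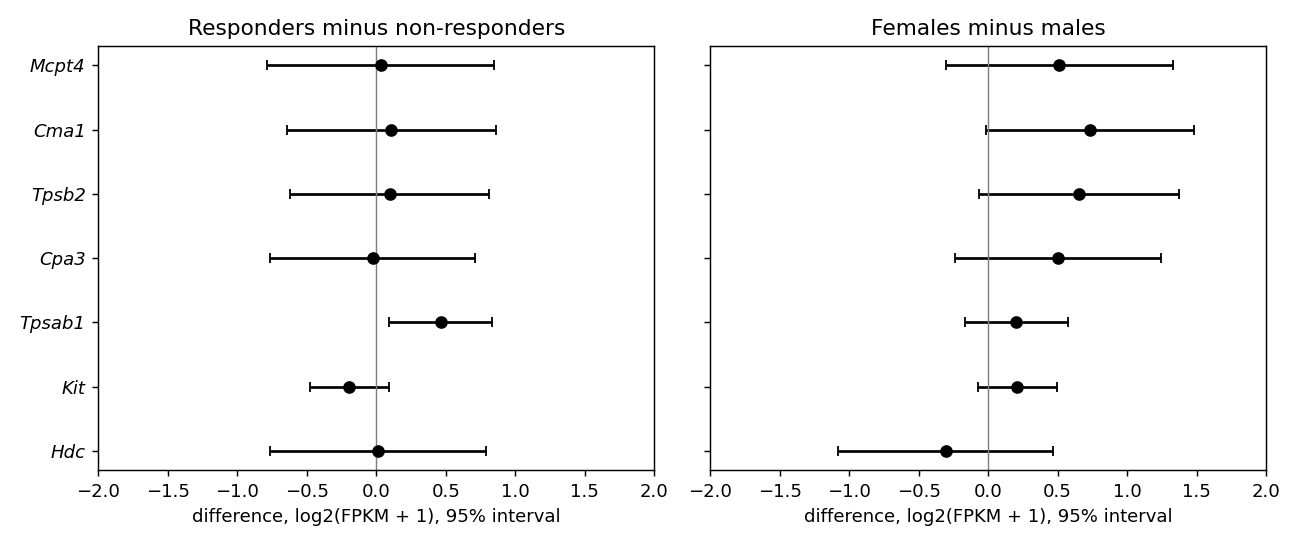
Differences of the 7 tested mast cell genes (rows) in log2(FPKM + 1), responders minus non-responders on the left and females minus males on the right, with points for the estimates and bars for 95% intervals from limma. On the left the Tpsab1 interval, 0.09 to 0.83, alone lies clear of 0, and on the right none does.

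Females and males were compared with the response group as a covariate. Cma1 averaged 5.20 ± 2.67 FPKM in females and 2.85 ± 1.86 FPKM in males (SD, n = 6 each), a log2 difference of 0.73 (SE 0.341, interval -0.02 to 1.48, limma adjusted p = 0.864). Tpsb2 averaged 4.78 ± 2.36 FPKM in females and 2.78 ± 1.63 FPKM in males, a log2 difference of 0.65 (SE 0.327, interval -0.06 to 1.37, limma adjusted p = 0.864). For Mcpt4 the means were 7.93 FPKM in females and 5.90 FPKM in males, and for Cpa3 2.65 FPKM in females and 1.77 FPKM in males. Kit had 12.6 FPKM in females and 10.8 FPKM in males, Tpsab1 0.982 FPKM in females and 0.758 FPKM in males, and Hdc 1.08 FPKM in females and 1.59 FPKM in males. The ranges of females and males overlapped for each of the 7 genes.

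None of the 7 passed by limma between the sexes (0 at an adjusted p of 0.05, where 0.0563% of all genes did, and 0 at an unadjusted p under 0.05, where 4.53% did). Of the 7 differences 6 were above 0, where the median over all genes was -0.0065. The 5 proteases, all above 0, follow one another over the mice, so that these signs are not independent. With single mice left out, the Cma1 difference lay between 0.51 and 0.94 and that of Tpsb2 between 0.44 and 0.83. Without non-responders 2 and 3 together, an omission chosen after seeing the data, the female minus male difference was 0.35 for Cma1 and 0.27 for Tpsb2. The difference between responders and non-responders was itself compared between females and males: 0 of the 7 genes passed (limma adjusted p from 0.836 to 0.986; 0 at an unadjusted p under 0.05), where 0.0% of all genes passed and 5.01% had an unadjusted p under 0.05. The interval for Tpsab1 in that test ran from -0.82 to 0.75.

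The granule proteases moved together from mouse to mouse. Non-responder 2 had the lowest value of all 5 proteases and responder 2 the next lowest of all 5, while non-responder 3 had the highest of 4 and responder 6 the highest of the fifth, Tpsab1. Their sum was 39.4 FPKM in non-responder 3, 28.6 in responder 6 and 23.8 in responder 5, against 6.80 in responder 2 and 3.74 in non-responder 2. The highest and lowest mice were thus both non-responders. The ratio of the highest to the lowest mouse was 19.9-fold for Cpa3, 13.8-fold for Tpsab1, 12.5-fold for Cma1, 12.2-fold for Tpsb2 and 7.78-fold for Mcpt4.

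Across the 12 mice, Cma1 and Tpsb2 followed each other most closely, with a Pearson r of 0.98 and a Spearman rho of 0.98 in log2(FPKM + 1) (permutation p = 1e-05 for each). Over the 10 pairs of proteases r lay between 0.62 and 0.98 and rho between 0.58 and 0.98, with permutation p values adjusted over 14 relations of 5e-05 to 0.0397 for r and 5e-05 to 0.0668 for rho. That p of 1e-05 is the smallest the 100000 permutations can give. Without the 2 mice farthest from the median r lay between 0.39 and 0.96, the lowest for Cpa3 with Tpsab1. Within responders it was 0.89 to 0.99, within non-responders 0.78 to 0.99, within females 0.44 to 0.97 and within males 0.62 to 1.00. The pairs with Tpsab1 made up the low end, with r of 0.62 to 0.76 over all mice and 0.78 to 0.95 within either response group.

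Mcpt4 was also set against other mast cell genes. With Mrgprb2 it had r = 0.70 (permutation p = 0.0127, adjusted 0.018; rho 0.78, p = 0.00389, adjusted 0.00681), and r = 0.66 without the 2 farthest mice, though Mrgprb2 was near 0 in every mouse. With Kit it had r = 0.23 (permutation p = 0.478, adjusted 0.515; rho 0.29, p = 0.365), and with Slc18a2, the vesicle transporter for histamine and other amines, r = 0.31 (permutation p = 0.326, adjusted 0.381; rho 0.29, p = 0.356). With Hdc it had r = 0.15 (permutation p = 0.643, adjusted 0.643; rho 0.27, p = 0.389), and r was -0.31 without the 2 farthest mice. Within groups the Hdc value split, at -0.52 in responders and 0.79 in non-responders, and this difference was not tested.

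**Figure D3:**
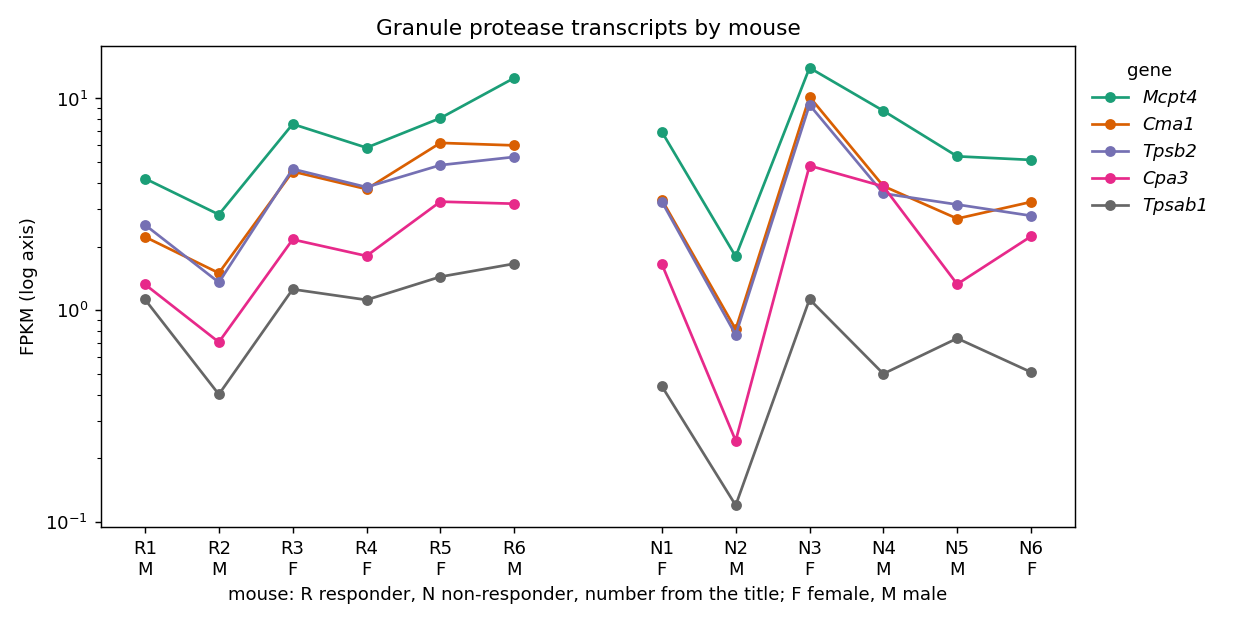
FPKM of the 5 granule proteases (log axis) in each mouse, responders R1 to R6 left of non-responders N1 to N6, with F for females and M for males; lines join values of 1 gene and carry no order of mice. The 5 lines dip together at N2, where the sum was 3.74 FPKM, and at R2, at 6.80 FPKM. At N3, where the sum was 39.4 FPKM, 4 of them peak, and Tpsab1 peaks at R6. Tpsab1 lies farther below Tpsb2 in each non-responder than in any responder.

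Since these genes moved together, their start regions were looked at for the letters bound by GATA factors, a family needed for mast cell development. The RefSeq promoter table of GRCm38.p6 held 7 of the 9 genes, from 250 bases before to 50 after the start, and not Tpsb2 or Tpsab1. The promoters of 3 proteases are shown 5′ to 3′ on the gene's strand, with GATAA or its reverse complement TTATC in capitals: Cma1 is chr14:55944626-55944925, Mcpt4 chr14:56062261-56062560 and Cpa3 chr3:20242132-20242431, all on the minus strand.

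Cma1 promoter: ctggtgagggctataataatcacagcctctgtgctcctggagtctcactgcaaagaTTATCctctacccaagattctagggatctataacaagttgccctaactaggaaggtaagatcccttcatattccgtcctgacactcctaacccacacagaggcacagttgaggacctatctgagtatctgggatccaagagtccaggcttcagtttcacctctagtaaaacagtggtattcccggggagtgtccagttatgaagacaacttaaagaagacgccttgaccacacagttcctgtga

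Mcpt4 promoter: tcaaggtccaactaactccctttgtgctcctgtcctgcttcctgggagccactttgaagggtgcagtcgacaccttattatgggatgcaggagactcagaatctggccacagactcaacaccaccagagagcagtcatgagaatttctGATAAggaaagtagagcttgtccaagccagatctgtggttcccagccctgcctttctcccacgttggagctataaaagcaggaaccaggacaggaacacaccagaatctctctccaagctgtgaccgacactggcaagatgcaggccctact

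Cpa3 promoter: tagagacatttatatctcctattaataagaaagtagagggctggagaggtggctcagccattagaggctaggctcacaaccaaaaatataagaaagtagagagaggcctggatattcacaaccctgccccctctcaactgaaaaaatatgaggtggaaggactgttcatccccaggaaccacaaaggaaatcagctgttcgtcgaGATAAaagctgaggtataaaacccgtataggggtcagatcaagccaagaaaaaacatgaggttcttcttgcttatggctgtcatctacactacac

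On either strand, GATAA was found in 5 of the 7 promoters, at -194 in Cma1, -102 in Mcpt4, -92 in Fcer1a, -48 in Mrgprb2 and -45 in Cpa3 from the start, and not in Kit or Hdc. Of all 32851 promoters of the same length in the table, 25.4% held it. Genes near 0 here, Fcer1a and Mrgprb2, thus carried the letters as the proteases did, and a match is a string of letters, not a bound site. A second string, CANNTG with N for any base, was also searched. It was found in each of these promoters other than that of Mcpt4, and 72.3% of all promoters held it.

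Tpsab1 was set against Tpsb2 in each mouse, a ratio chosen after the values were seen. It was 0.270, 0.297 and 0.444 in the lowest, the median and the highest responder, against 0.121, 0.149 and 0.234 in non-responders. The groups did not overlap: the lowest responder, responder 3, lay above the highest non-responder, non-responder 5. The mean difference was 1.00 on the log2 scale of the ratio, or 2.00-fold, beside an SD of 0.302 within groups, and 0.87 without responder 1 and non-responder 4. As background, the ratio to Tpsb2 separated the groups with responders higher for 2 of 14202 tested genes, 0.0141%, and in either direction for 7, 0.0493%. Tpsab1 is itself among those 2 genes. Since the ratio was picked from these same values, the share is no measure of chance. It is also low by construction: Tpsb2 varied 12.2-fold between mice, and a gene that does not follow Tpsb2 takes on that spread. Before division, 0.549% of all genes separated the groups.

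The same held less cleanly for the other proteases as denominators. Of the 4 ratios with Tpsab1, 1 separated the groups, and Tpsab1 over Mcpt4, for example, had medians of 0.172 in responders and 0.0738 in non-responders with overlapping ranges. Of the 6 ratios without Tpsab1, 0 separated the groups, and Tpsb2 over Cma1 lay between 0.786 and 1.14 in responders and between 0.861 and 1.17 in non-responders. With the mean of the 4 other proteases as a further covariate, also chosen after the data were seen, the Tpsab1 difference was 0.44 (SE 0.0992, limma adjusted p = 0.237), rank 71 of 14203 genes by p. In that fit 2 genes, 0.0141%, passed and Tpsab1 did not.

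**Figure D4:**
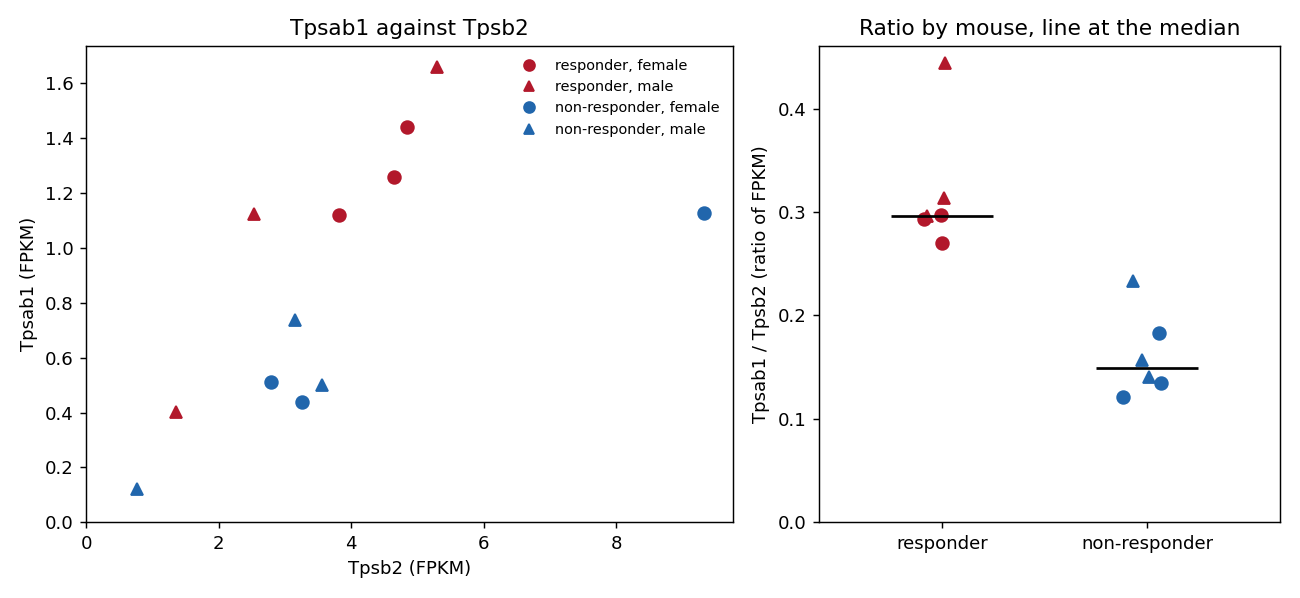
Left, Tpsab1 against Tpsb2 in FPKM, 1 point per mouse, circles for females and triangles for males; right, the ratio of Tpsab1 to Tpsb2 in each mouse with a line at the group median. Responder ratios lie between 0.270 and 0.444 and non-responder ratios between 0.121 and 0.234, with females and males in both clusters.

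The labels tie the response to other features of the mice. The number that opens each description, whose meaning the labels do not give, took 7 values, and 0 of them held mice of both groups or both sexes. It cannot be told apart from the response for Tpsab1 or its ratio to Tpsb2. Of 12 fibroblast markers, 8 were lower in responders at an unadjusted p under 0.05, where 4.17% of all genes were lower, and 0 passed by limma, with sums of 274 to 535 FPKM in responders and 573 to 1652 FPKM in non-responders that did not overlap. No marker was at 0 in every mouse. Other marker lists also held genes with an unadjusted p under 0.05, with 0 passing by limma. Of 8 satellite glia and Schwann markers, 4 were lower in responders, and of 7 tested skeletal muscle markers 1 was. Of 7 pituitary hormone genes, 6 were higher in responders, where 3.23% of all genes were higher. Of the adipocyte markers, 3 of 3 tested were lower in responders, and of the bone markers 3 of 5 tested. Of the 6 adipocyte markers listed, 3 were not tested. Adipoq and Cfd reached at most 0.717 and 0.140 FPKM in responders, so that they passed the filter through non-responders alone. The part of these tissues in the Tpsab1 difference was not tested.

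Genes with the pattern most like that of the proteases were sought among 12430 tested genes, by Pearson r of log2(FPKM + 1) with the protease mean over 12 mice, as a description. The highest were Cldn1 (r = 0.92), which encodes a tight junction protein of epithelia and the perineurium, Meox2 (0.91), a homeobox factor of mesenchyme and vessels, Prps2 (0.90), an enzyme of nucleotide synthesis, C1s1 (0.89), a protease of the classical complement pathway, and Igfbp6 (0.88), a binding protein for insulin-like growth factors. Shisa3 (0.88), Apod (0.88), a lipid carrier, Mgl2 (0.84), a lectin of macrophages and dendritic cells, Adm (0.84), the adrenomedullin gene, and Gstm2 (0.84), a glutathione transferase, completed the 10. Cldn1 had 1.47 to 6.08 FPKM in responders and 2.04 to 8.18 FPKM in non-responders. Its top was in non-responder 3, as for 4 of the 5 proteases. All genes compared share the same 12 libraries.

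**Figure D5:**
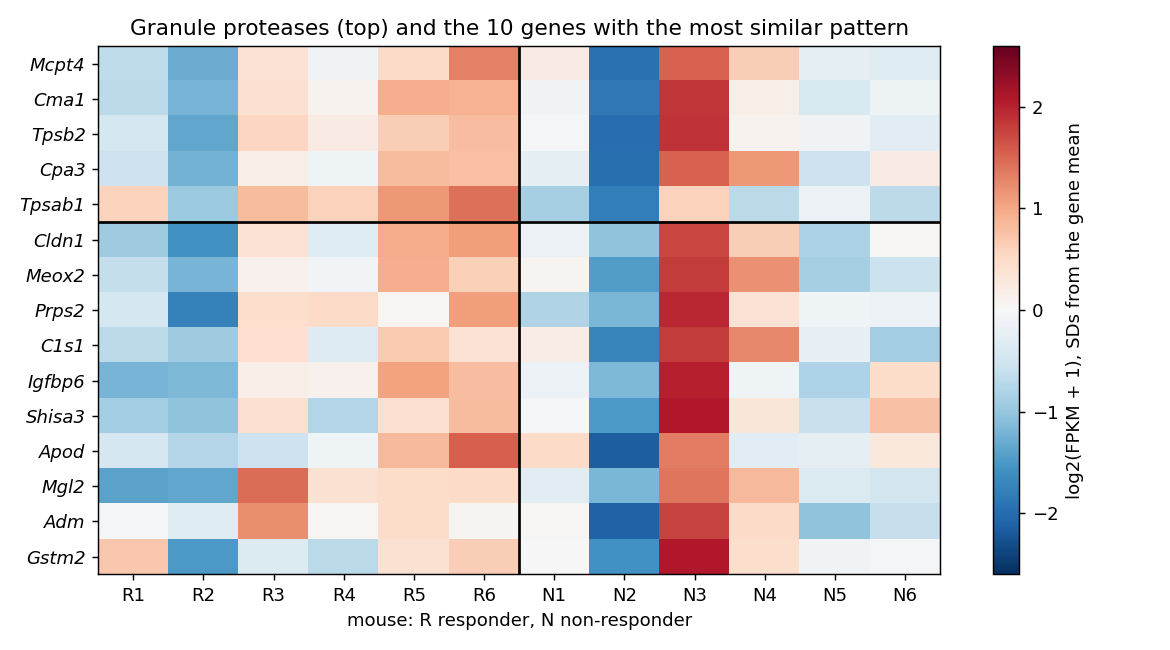
Each cell shows log2(FPKM + 1) of 1 gene (rows) in 1 mouse (columns, responders R1 to R6 left of non-responders N1 to N6), as SDs from that gene's mean. The 5 proteases above the line and the 10 genes most like them below it are low in N2 and high in N3; the genes were picked for this likeness, with r from 0.84 to 0.92.

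The 5 genes most like Kit were others. Agpat5 (r = 0.89), an enzyme of phospholipid synthesis, Atoh8 (0.84), a transcription factor, Set (0.81), a histone chaperone, Map3k6 (0.81), a kinase of the stress pathways, and Fzd10 (0.81), a Wnt receptor, had the highest values. None of these was among the 10 most like the proteases. Among the marker lists of other cells, the macrophage sum followed the protease mean most in log2 level, with r = 0.71. It was 0.49 without non-responders 2 and 3. Single macrophage markers were uneven, with C1qa at 0.73, Cd163 at 0.71, Mrc1 at 0.70, C1qb at 0.69 and Csf1r at 0.57. F13a1 had 0.38, Adgre1 0.20, Lyve1 0.20 and Cx3cr1 0.15. The fibroblast sum had r = 0.24, though Lum (0.73), Dcn (0.68) and Foxc1 (0.64) were high. Other fibroblast markers ran from -0.06 (Igf2) to 0.41 (Pdgfra). All 9 macrophage markers were tested and none was at 0 in every mouse. Their sums lay between 37.2 and 73.6 FPKM in responders and between 32.8 and 99.7 FPKM in non-responders. Their part in the protease pattern was not tested. The sums of neutrophil (r = 0.03), basophil (0.06), pituitary (0.10) and sensory neuron markers (0.00) did not follow the proteases.

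Further mast cell pathways were described from 9 lists with 66 genes, of which 33 were tested. By limma 0 were called, 0 were higher in responders and 1 was lower at an unadjusted p under 0.05, where 4.17% of all genes were lower. Differences were above 0 for 9 and below 0 for 24, against 7208 above and 6995 below among all genes, whose median was 0.00.

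Of 8 other proteases of mast cells and basophils, 2 were tested, with a median difference of -0.89. Ctsg, cathepsin G of neutrophil and mast cell granules, was listed at 0 to 7.88 FPKM in responders and at 0 to 45.8 FPKM in non-responders. Mcpt8, a basophil protease, was listed at 0 to 1.61 FPKM in responders and at 0 to 18.7 FPKM in non-responders. Ctsg differed by -1.08 and Mcpt8 by -0.70, and neither passed by limma (adjusted p of 0.786 and 0.803). Without non-responder 4 the differences were -0.40 (Ctsg) and -0.084 (Mcpt8), and without responder 1 and non-responder 4 together -0.18 (Ctsg) and 0.0035 (Mcpt8). Both tops were in non-responder 4, whose 5 basophil markers summed to 46.0 FPKM. In the other mice that sum lay between 0.782 and 6.43 FPKM, and 3 of the 5 markers were tested. Non-responder 4 was not the highest mouse for any of the 5 granule proteases.

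The 6 tested genes of mediator synthesis and storage had a median difference of -0.30. Slc18a2 had 1.99 ± 0.0995 FPKM in responders and 2.28 ± 0.338 FPKM in non-responders. Alox5, a lipoxygenase of leukotriene synthesis, had 0.600 ± 0.286 FPKM in responders and 1.38 ± 1.21 FPKM in non-responders, and Ptgs1, a cyclooxygenase, 1.63 ± 1.18 FPKM in responders and 3.01 ± 2.56 FPKM in non-responders. None passed by limma (adjusted p of 0.744, 0.749 and 0.766).

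The 9 tested genes of FceRI and KIT signalling had a median of -0.26. Syk, the kinase that FceRI recruits, had 0.719 to 3.35 FPKM in responders and 0.633 to 20.2 FPKM in non-responders. Lyn, the kinase that starts FceRI signalling, had 0 to 1.05 FPKM in responders and 0.226 to 5.03 FPKM in non-responders, and Lat, an adaptor, had 0.207 to 2.06 FPKM in responders and 0.291 to 7.38 FPKM in non-responders. The top value of each was again in non-responder 4, whose neutrophil marker sum of 4374 FPKM compared with 8.98 to 898 FPKM in the other mice. All 12 neutrophil markers were tested and none was at 0 in every mouse. Their part in these values was not tested.

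Of the transcription factors, Gata2, needed for mast cell development, had 3.00 ± 2.78 FPKM in responders and 2.14 ± 0.844 FPKM in non-responders, with the top, 8.48 FPKM, in responder 1. Tal1, a factor of the blood lineage, had 1.24 ± 1.81 FPKM in responders and 4.78 ± 7.78 FPKM in non-responders, and Mitf, a factor of mast cells and melanocytes, 0.593 ± 0.319 FPKM in responders and 0.846 ± 0.554 FPKM in non-responders. Ptger3, a prostaglandin E receptor that sensory neurons also make, had 9.94 ± 2.56 FPKM in responders and 10.4 ± 1.12 FPKM in non-responders. Kitl, the stem cell factor gene, stood at 15.3 ± 3.43 FPKM in responders and 17.1 ± 1.68 FPKM in non-responders, and Il33, an alarmin that activates mast cells, at 7.70 ± 2.18 FPKM in responders and 8.88 ± 3.29 FPKM in non-responders. None of these passed by limma (adjusted p of 0.909, 0.786, 0.817, 0.913, 0.787 and 0.868 in the order named).

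Vip, which encodes the neuropeptide closest to PACAP, had 0.0226 to 2.28 FPKM in responders and 0.199 to 48.2 FPKM in non-responders, and its difference of -1.93 (SE 0.817, limma adjusted p = 0.640) was the 1 with an unadjusted p under 0.05; it ran from -2.50 to -1.31 with single mice left out. Adcyap1, the PACAP gene, differed by -0.14 (limma adjusted p = 0.859). Of the histamine receptors and breakdown enzymes, Hrh1, the receptor blocked by classic antihistamines, had 0.863 ± 0.381 FPKM in responders and 0.437 ± 0.388 FPKM in non-responders (difference 0.39, limma adjusted p = 0.678). Hnmt, which inactivates histamine, had 1.93 ± 1.86 FPKM in responders and 3.53 ± 2.65 FPKM in non-responders, and Hrh3, a presynaptic receptor, 2.41 ± 0.493 FPKM in responders and 2.11 ± 0.521 FPKM in non-responders, with limma adjusted p of 0.766 and 0.812.

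The relatives of Mrgprb2 are known mainly from sensory neurons. Summed over 8 genes, they came to 22.0 to 60.3 FPKM in responders and 32.6 to 44.4 FPKM in non-responders, far above Mrgprb2. Mrgprd alone had 14.8 to 44.9 FPKM in responders and 23.0 to 30.8 FPKM in non-responders. Not all relatives were above Mrgprb2: Mrgprb1 reached 0.296 FPKM at most, and 2 genes, Mrgprb3 and Mrgprb8, were at 0 in every mouse. Mrgprb5 had 4.55 ± 1.77 FPKM in responders and 3.24 ± 1.70 FPKM in non-responders (limma adjusted p = 0.758). Mrgprb4, a marker of touch-sensitive skin fibres, had 1.47 ± 1.48 FPKM in responders and 2.04 ± 1.27 FPKM in non-responders (adjusted p = 0.832 by limma), and Mrgprx1 2.53 ± 1.13 FPKM in responders and 2.93 ± 0.981 FPKM in non-responders (limma adjusted p = 0.839). The median difference of the 5 tested relatives was 0.01.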

How the data were processed

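Poly A libraries of trigeminal ganglia from 12 CD1 mice were read in pairs on an Illumina HiSeq, per the labels. The authors deposited 1 table of gene values per Ensembl identifier and mouse. Its header names no unit, and the deposited values were taken as FPKM because totals differ between mice and low values fall on steps. The submitters' processing notes name STAR 2.6.0a, StringTie 1.3.5, GRCm38 and mm10. The sources used here do not state the annotation or the use of strand. There were 0 pairs of identical columns and 0 columns of other samples.

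Symbols came from GENCODE M21 (51076 of 51341 identifiers matched). log2(FPKM + 1) was fitted with limma 3.58.1 in R 4.3.3 over genes reaching 1 FPKM in 3 or more mice. The model held response and sex (9 residual degrees of freedom), or 4 cell means for the interaction. Tests were 2-sided, with Benjamini-Hochberg adjustment across every tested gene and a threshold of 0.05. An exact permutation test was planned for genes outside the filter and was also run on the tested mast cell genes. The procedure was tested on simulated data. The implied depth is inexact, and intervals that need counts were not made. The design had allowed for counts, and the branch for FPKM was used.

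The members and lists were chosen with earlier results of these data known. The text names all members, up to 3 tested genes of each related list with the smallest p, and the genes most like the proteases (10) and Kit (5). Ms4a2, Fcer1g, Tyr, Tubb3, Prph, Adipoq, Cfd, Mir7007 and Gm48934 were named beside a result. So were single macrophage and fibroblast markers, Mrgprd, Mrgprb1, Mrgprb3 and Mrgprb8. Alternatives covered the pseudocount, filter, scaling, sex term, left-out mice, replicate block, description number and eBayes options.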

Additional observations from a re-analysis of the deposited data

Results flagged for a closer look

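In 15 of 60 groups of 6 mice, 1 mouse lay far from the other 5, with a gap to the next above 0.625 of the group's range. Chance flags about 1 in 20 groups of normally distributed values, a rate that need not hold for FPKM. The groups share mice, so that the flags are not independent. Among the mast cell genes both flags came from non-responder 3, at 10.2 FPKM of Cma1, where the next non-responder had 3.86, and at 9.33 FPKM of Tpsb2, where the next had 3.56. Leaving out non-responder 3 left neither gene past the test.

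Non-responder 4 accounted for 9 flags among the related genes. It had 45.8 FPKM of Ctsg, 18.7 of Mcpt8, 2.91 of Slc18a2, 8.01 of Ptgs1, 5.03 of Lyn, 7.38 of Lat, 20.2 of Syk, 20.2 of Tal1 and 48.2 FPKM of Vip. In responder 3, Lat (2.06 FPKM), Tal1 (4.82) and Mitf (1.20) stood above the other responders, and in responder 1 Gata2 did (8.48).

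Mrgprb4 and Mrgprx1 were flagged because responders and non-responders did not overlap within either sex, in opposite directions in females and males. For Mrgprb4 the 3 female responders had 2.75 to 2.95 FPKM, above all female non-responders, at 0.104 to 2.29, while the male responders had 0 to 0.306 FPKM, below all male non-responders, at 1.46 to 4.00. The interaction was 2.36 (SE 0.553, limma adjusted p = 0.764). For Mrgprx1 it was 0.96 (SE 0.296, limma adjusted p = 0.836), with female responders at 3.15 to 3.81 FPKM against 2.36 to 3.12 in female non-responders, and male responders at 1.38 to 1.61 against 1.91 to 4.75 in male non-responders. Neither interaction passes the correction over all genes. Only the mast cell genes and the named related genes were searched, the latter picked for a small response p. The share of all genes with such a pattern was not counted. With 3 mice a side in each sex, how unusual the pattern is cannot be said. Every male non-responder carried description number 82 and no responder did, so that in males this number cannot be told apart from the response.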

How the results depend on the processing

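No tested mast cell gene was called under any alternative run: adjusted p lay between 0.237 and 0.999 for the response, 0.499 and 0.999 for sex and 0.701 and 1.00 for the interaction. The Tpsab1 response difference stayed above 0, from 0.37 to 0.99 (the last with a pseudocount of 0.1), and that of Kit below 0, from -0.28 to -0.10. The 3 response calls of the whole table were 1 with the replicate block and 1 with mice averaged by description number, and 2 to 6 when single mice were left out. Sex calls were 8, against 5 with the block and 6 to 9 without single mice, and interaction calls 0, against 3 without non-responders 2 and 3 together and 0 to 3 without single mice. A responder and the non-responder with the same replicate number in the title showed little common deviation (correlations from -0.27 to 0.13, 1 of 6 over 0.1). Whether the replicate numbers pair the mice was not tested. The correlation between mice that share a description number was not computed.

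Signs turned for small differences, and the cause was not tested. Without non-responders 2 and 3, an omission chosen after seeing the data, the Mcpt4 response was -0.034 and the interactions were 0.56 (Cma1), 0.50 (Mcpt4), 0.59 (Cpa3), 0.65 (Tpsb2), 0.32 (Tpsab1) and 0.31 (Hdc). With the block the sex differences were -0.13 (Mcpt4), -0.025 (Cpa3) and -0.098 (Tpsab1), and those of Cma1 and Tpsb2 were 0.15 and 0.027. The Cpa3 response was 0.083 with the pseudocount of 0.1, 0.030 as TPM and 0.18 without responder 1 and non-responder 4. The Hdc response was -0.010, -0.011 and -0.12 under the same settings and -0.28 with averaged mice, and the Hdc sex difference 0.045 without those mice. Without them Mcpt8 was 0.0035, Gata2 -0.00878 and Ptger3 0.031, and with averaged mice Gata2 was -0.042 and Ptger3 0.00803. Without single mice, response differences ran from -0.10 to 0.33 (Cma1), -0.23 to 0.21 (Mcpt4), -0.25 to 0.19 (Cpa3), -0.11 to 0.31 (Tpsb2), -0.22 to 0.23 (Hdc), -0.11 to 0.36 (Gata2) and -0.19 to 0.049 (Ptger3). Interactions ran from -0.62 to 0.15 (Cma1), -0.77 to 0.17 (Mcpt4), -0.72 to 0.26 (Cpa3), -0.57 to 0.22 (Tpsb2), -0.29 to 0.17 (Tpsab1) and -0.81 to 0.050 (Hdc). The Tpsab1 to Tpsb2 difference in log2 ratio ran from 0.90 to 1.11. The likeness of single genes to the proteases was lowest for Adm, at 0.54, without non-responders 2 and 3.

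Depth was inferred from the values, so genes near 0, such as Mrgprb2 and Fcer1a, carry no counting interval.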
